A study of Mus musculus with 8 samples.

Results

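Of 21051 merged accessible regions, 2477 were listed at every chromate dose and lay at an end of a protein-coding gene, and nearly all of those whose gene has a known strand lay at the start of the gene, that is, at its promoter. They were selected on their presence in each list and their position, by merging the regions of 3 lists that overlapped by at least 1 bp, leaving out chromosome 15, keeping merged regions with a region from each list, and keeping those whose midpoint lay within 1 kb of the start or end of a protein-coding gene. These 2477 regions are called the members. Those values are therefore given as a description, with no test.

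ATAC-seq, which uses the Tn5 transposase to tag DNA that is not wrapped in nucleosomes, was run on Hepa-1c1c7, an established mouse hepatoma cell line long used to study the aryl hydrocarbon receptor (AHR). For 72 h the cells had potassium chromate, which supplies chromium in its hexavalent form, at 0, 0.1, 0.5 or 1 µM, with 2 libraries at each dose. The deposited lists are 1 per treated dose, with the untreated cells named in each as the partner, and both libraries of a dose carry the same list. The series title points to promoters and to sites of CTCF, a protein that folds chromosomes. How the untreated libraries entered each list is not given, and no list of untreated cells was used here, so a member is a site listed in treated cells and is not shown to have opened with chromate. The 1 µM libraries carry the prefix N503 and all others N502, which cannot be told apart from the dose. All values come from 1 cell line without replicate lists, so doses could not be compared beyond the variation of cultures.

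A promoter is the stretch around a gene's start where RNA polymerase II is loaded, and at active genes it is kept free of nucleosomes. Many mammalian promoters lie in CpG islands, where the dinucleotide CG has not been lost to methylation and decay, and these often drive genes that every cell uses. Such promoters rarely have a TATA box and instead hold short sites for general factors: the GC box for SP1 and its relatives, the ETS site for GABPA and other ETS factors, the CCAAT box for NF-Y, the CRE for CREB and ATF factors, and sites for NRF1 and YY1. Neighbouring genes that point away from each other often share a single such promoter.

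The promoters below show what the members look like in sequence. Each is the best ranked member promoter, by deposited score, that is covered in every list and holds a given motif. Ppp2r1a stands for the CCAAT box, GC box and ETS site, Cggbp1 for the CTCF core, Zfp120 for a promoter without an excess of CpG, Mrpl17 for the NRF1 site, Mettl4 for the full CRE, Cdk5rap2 for the YY1 site and Zfp317 for the TATA box. They run 5′ to 3′ on the strand of the gene, from 250 bases before the start to 50 after it, from RefSeq on GRCm38.p6. Capitals mark the motif each one is shown for and every CCAAT box, on either strand.
Ppp2r1a: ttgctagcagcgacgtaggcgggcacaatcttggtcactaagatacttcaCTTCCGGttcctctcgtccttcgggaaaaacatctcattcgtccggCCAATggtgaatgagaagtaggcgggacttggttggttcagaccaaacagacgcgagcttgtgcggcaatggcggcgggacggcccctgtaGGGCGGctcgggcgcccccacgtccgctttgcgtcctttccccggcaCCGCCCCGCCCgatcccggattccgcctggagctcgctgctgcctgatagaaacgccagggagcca
Cggbp1: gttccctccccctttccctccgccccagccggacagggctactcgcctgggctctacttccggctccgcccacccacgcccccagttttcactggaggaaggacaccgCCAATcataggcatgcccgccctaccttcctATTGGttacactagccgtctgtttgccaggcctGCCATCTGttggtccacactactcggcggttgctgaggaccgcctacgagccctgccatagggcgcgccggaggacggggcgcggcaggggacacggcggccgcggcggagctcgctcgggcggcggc
Zfp120: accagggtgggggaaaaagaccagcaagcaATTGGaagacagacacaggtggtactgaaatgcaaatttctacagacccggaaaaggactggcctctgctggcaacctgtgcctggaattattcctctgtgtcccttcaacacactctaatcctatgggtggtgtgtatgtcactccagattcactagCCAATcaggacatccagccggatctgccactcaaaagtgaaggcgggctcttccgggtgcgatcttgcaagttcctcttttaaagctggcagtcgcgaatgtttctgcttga
Mrpl17: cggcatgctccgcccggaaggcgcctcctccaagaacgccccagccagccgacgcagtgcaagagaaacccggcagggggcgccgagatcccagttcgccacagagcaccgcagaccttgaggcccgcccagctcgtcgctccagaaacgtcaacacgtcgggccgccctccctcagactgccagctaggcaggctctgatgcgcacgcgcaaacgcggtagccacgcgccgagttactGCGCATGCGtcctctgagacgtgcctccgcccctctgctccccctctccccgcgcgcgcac
Mettl4: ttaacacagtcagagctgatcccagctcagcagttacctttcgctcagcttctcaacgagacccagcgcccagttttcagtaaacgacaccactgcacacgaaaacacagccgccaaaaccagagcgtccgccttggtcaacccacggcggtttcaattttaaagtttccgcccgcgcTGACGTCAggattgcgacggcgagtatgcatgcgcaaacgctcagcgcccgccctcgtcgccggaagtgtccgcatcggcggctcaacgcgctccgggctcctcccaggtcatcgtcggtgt
Cdk5rap2: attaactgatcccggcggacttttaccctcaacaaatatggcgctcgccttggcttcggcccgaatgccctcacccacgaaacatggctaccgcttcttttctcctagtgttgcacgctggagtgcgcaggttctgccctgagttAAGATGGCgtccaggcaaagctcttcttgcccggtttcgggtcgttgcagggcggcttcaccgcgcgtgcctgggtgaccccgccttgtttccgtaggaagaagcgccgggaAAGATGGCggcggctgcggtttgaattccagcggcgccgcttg
Zfp317: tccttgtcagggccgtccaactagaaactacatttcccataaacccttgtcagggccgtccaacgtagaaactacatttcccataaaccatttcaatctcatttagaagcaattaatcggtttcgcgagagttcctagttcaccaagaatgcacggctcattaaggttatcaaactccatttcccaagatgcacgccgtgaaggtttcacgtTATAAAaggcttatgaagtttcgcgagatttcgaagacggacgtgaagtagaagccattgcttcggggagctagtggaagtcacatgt
The Ppp2r1a promoter (chr17:20945204-20945503, plus strand) has a CCAAT box whose leading base lies at -154 from the start, an ETS site on the other strand at -200, and 3 GC boxes, a pair of which overlap by a base on the other strand. Cggbp1 (chr16:64851751-64852050, plus strand) has 2 CCAAT boxes in opposite directions, at -142 and -111, ahead of its CTCF core on the other strand at -78. Zfp120 (chr2:150136629-150136928, minus strand) also has 2 in opposite directions, at -220 and -62, with a CpG content of 0.37 times that expected from its bases. Mrpl17 (chr7:105811038-105811337, minus strand) has its NRF1 site at -11 and Mettl4 (chr17:94749970-94750269, minus strand) its CRE at -72. Cdk5rap2, a centrosome gene (chr4:70410386-70410685, minus strand) carries the YY1 site at -105 and again at 8 bases into the transcript. Zfp317 (chr9:19621841-19622140, plus strand) has its TATA box at -38.

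The further a region was shared between lists, the more often it lay at a gene end. Of the 6331 regions listed at every dose off chromosome 15, 2477 (39.1%, 95% Wilson interval 37.9 to 40.3) were at gene ends, against 1128 of 4272 (26.4%, 25.1 to 27.7) listed at 2 doses and 1646 of 7287 (22.6%, 21.6 to 23.6) listed at 1 dose. The other regions listed at every dose were 1839 inside genes and 2015 between genes. Intervals here and below cover counting error only, and neighbouring regions are not independent. Sharing between lists cannot be told apart from the strength of a region, and the part of score and width in this trend was not tested. A further 174 regions listed at every dose lay at gene ends of chromosome 15 and were left out by the rule.

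Which end of the gene a member occupied was not used to choose it. The strand was known for the genes of 2039 members. The nearest end was the start in 1987 of them (97.4%, 96.7 to 98.0) and the far end in 52. Among gene-end regions at 2 doses the start made up 96.0% (94.5 to 97.1) and among those at 1 dose 93.7% (92.2 to 94.8). For 438 members the strand was not given. They include every member on chromosome 18 that is named here. Far ends and opposite starts can be called only where the strand is known. That none was called on chromosome 18, which held 109 members, therefore cannot be read as an absence there. Results on starts, promoters and motifs leave out genes without a strand.

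Members were centred on the start itself. Their midpoint lay at a median of 26.5 bp downstream of the start, with quartiles at -78.75 and 148 bp (downstream positive). Within 250 bp of the start lay 78.6% of member midpoints, against 75.8% at 2 doses and 64.5% at 1 dose. The merged member covered the start itself in 89.5% of cases, against 72.7% and 47.8%. Regions listed at more doses were also wider, with a median merged width of 702 bp at every dose, 404 bp at 2 doses and 252 bp at 1 dose. Averaged over the lists that hold the region, the medians were 531, 323 and 252 bp, and the part of width in the covered share was not tested.

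**Figure D1:**
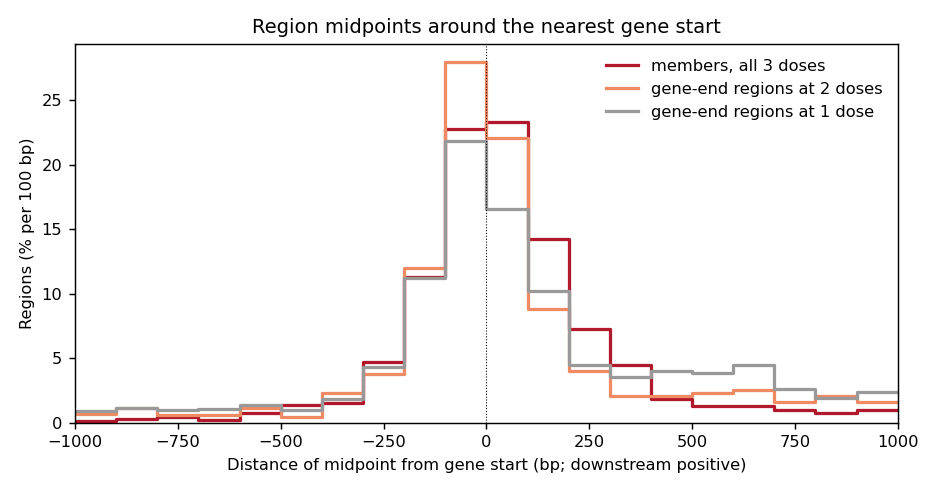
Midpoints of gene-end regions around the nearest gene start, in bins of 100 bp, as a percentage of the regions of each group (downstream positive). The members peak on both sides of the start and their tail beyond 400 bp downstream is lower than that of regions listed at 1 dose.

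The 52 members nearest a far end were narrower (median 584 bp, against 708 bp at starts) and ranked lower by score (median mean rank percentile 61.3, against 68.0). The rank percentile places a region's deposited score among all regions of its list, and the mean is taken over the 3 lists. Only 8 of the 52 also lay within 1 kb of a start of any gene in the promoter table. The best ranked was at the end of Gm20783 (chr9:124422572-124425492, scores 63, 54 and 80 at 0.1, 0.5 and 1 µM). Next came Zfp53 (chr17:21531893-21532787, scores 48, 39 and 68), a zinc finger gene, then Mrpl36 (chr13:73330855-73331775, scores 42, 28 and 40), a protein of the mitochondrial ribosome, Arsj, a sulphatase gene, and Nab1, a corepressor of EGR factors.

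Many members lay at a promoter shared by a pair of genes. Of all members, 396 (16.0%) lay within 1 kb of the ends of 2 or more genes. Among the 318 at 2 genes of known strand, 271 touched the starts of genes on opposite strands, 39 a start and an end, 5 a pair of ends and 3 starts on the same strand. Over all starts of known strand off chromosome 15, 2261 of 16852 had a member (13.4%). Starts that form such a divergent pair, with the minus-strand start up to 1 kb to the left of the plus-strand start, had a member in 358 of 1134 cases (31.6%, 28.9 to 34.3), against 1903 of 15718 other starts (12.1%, 11.6 to 12.6).

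A paired start has another start within 1 kb by definition, so a member at either can count for both. That can raise the share at paired starts by construction, and its part in the gap was not tested. The gap was present on both sides of the CpG limit described below. Here a start had a member when its midpoint lay within 1 kb of the start in the promoter table, which for some genes is not the outer end of the gene counted above, so the totals are slightly lower. At starts that met the limit, 311 of 968 paired starts (32.1%, 29.3 to 35.1) had a member, against 1489 of 7257 others (20.5%, 19.6 to 21.5). Below the limit the counts were 24 of 166 (14.5%, 9.91 to 20.6) against 382 of 8455 (4.52%, 4.10 to 4.98). With regions at 1 or 2 doses only, the shares were 25.5% of paired starts and 21.2% of others where the limit was met. Below it they were 10.8% and 5.33%. The starts of a pair can share 1 region, so they are not independent.

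Among members at opposite starts with both strands known, the best ranked was that of Ormdl2, a regulator of sphingolipid synthesis, and Sarnp, a factor in mRNA export, at chr10:128821224-128822154 with scores of 110, 96 and 222. Tmem167 shares one with Xrcc4, which joins broken DNA ends (chr13:90089105-90090227, scores 121, 65 and 190). Fto, an RNA demethylase, shares one with Rpgrip1l, a protein of the ciliary base (chr8:91312973-91314039, scores 95, 69 and 202). Mospd2 with Fancb, of the Fanconi anaemia pathway, and Trmt1l, a relative of a tRNA methyltransferase, with Swt1 followed (scores 86, 86 and 156, and 93, 65 and 167). Members near 3 genes numbered 4: one at Brcc3, Cmc4 and Mtcp1, one at Ndufb6, Smim27 and Topors, one at Shld3, Trappc13 and Trim23, and one at Gm20604, Gon7 and Ubr7. In the other direction, 74 genes had more than 1 member, and Rwdd2b had the most, 3. Of the 60 such genes with a known strand, 26 had members within 1 kb of both the start and the far end. Such a member can also lie at a neighbouring gene. Tpp1, for example, shares a member that was centred 38 bp from the start of Taf10.

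Member promoters were mostly CpG-rich. A promoter met the CpG limit when CG occurred over its 300 bases at 0.6 or more of the rate expected from its C and G content. Of 2206 member promoters, 1800 met it (81.6%, 79.9 to 83.2), against 1786 of 2255 promoters near a region at 1 or 2 doses (79.2%, 77.5 to 80.8), 4639 of 12385 near no region (37.5%, 36.6 to 38.3) and 48.8% of all 16846. Median GC content was 61.7% at member promoters, 61.7% near a region at 1 or 2 doses and 54.0% near none. Being listed at every dose rather than at 1 or 2 thus went with little difference in CpG content, while having any region at all went with a large one.

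The CCAAT box, the site bound by NF-Y, was the motif whose share differed most in percentage points between CpG-rich member promoters and CpG-rich promoters near no region. The letters CCAAT, on either strand, were in 47.9% of member promoters (45.8 to 50), 42.6% of those near a region at 1 or 2 doses, 37.6% of those near none and 39.6% of all. Among CpG-rich promoters alone these shares were 47.5%, 41.5%, 32.8% and 37.9%. The ratio of the CpG-rich member share to the share near no region was 1.45 for CCAAT. It was higher for the ETS site (1.53) and the CRE variant TGACGCA (1.60), and also for the E2F site and the ZFP143 core. The first place of CCAAT thus held in percentage points and not as a ratio. CCAAT matches in member promoters lay at a median of 82 bp before the start (quartiles 152.5 and 44 bp before). Among the printed promoters, Ppp2r1a, Cggbp1 and Zfp120 hold it. A match says only that the letters are there.

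The ETS site and the GC box were also more frequent near regions, with little difference between members and regions at fewer doses. The ETS site CCGGAAG was in 22.4% of member promoters, 21.8% near a region at 1 or 2 doses, 8.4% near none and 12% of all. Within CpG-rich promoters the shares were 24.7%, 25% and 16.1% in the same order of members, fewer doses and none. The GC box GGGCGG, which itself holds a CG, was in 70% of members, against 68.7% and 38.5%. Within CpG-rich promoters it was in 75.9% of members, against 75.0% and 72.8%. The full CRE TGACGTCA was in 5.06% of CpG-rich members, against 3.75% at fewer doses and 3.51% near none, so that its shares at fewer doses and near none were the closer. The NRF1 site GCGCATGCG (4.89%, against 4.42% and 4.44%) and the YY1 site AAGATGGC (5.39%, against 5.94% and 4.87%) differed little.

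TATA boxes were scarce. The letters TATAAA were in 5.12% of member promoters, 6.47% near a region at 1 or 2 doses, 16.3% near none and 13.5% of all, and in 4.22%, 5.60% and 6.70% of the CpG-rich promoters of members, fewer doses and none.

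CTCF cores, the motif that the series title raises, did not stand out. Any of CAGGGGGC, CAGGTGGC, CAGATGGC, TAGGGGGC or TAGATGGC was in 9.16% of member promoters (8.02 to 10.4), 9.14% near a region at 1 or 2 doses, 8.03% near none and 8.33% of all. In CpG-rich promoters the shares were 9.67%, 9.57% and 10.2%. Motifs of stress pathways gave gaps of either sign within CpG-rich promoters. Members minus promoters near no region, they ran from -4.29 points for the metal element to 3.79 for the antioxidant element. The gap of the GC box was 3.15 points. The metal element TGCGCNC, the only form searched of the core bound by MTF1, was in 32.1% of members, 33.4% at fewer doses and 36.3% near none. The antioxidant element TGACNNNGC, bound by NRF2, was in 17.9%, 15.9% and 14.1%. The AHR core GCGTG was in 61.7%, 62.3% and 58.9%, and the AP-1 site TGANTCA in 3.78%, 3.36% and 3.30%. The remaining motifs searched were the E-box CACGTG (10.5%, 11.9% and 11.9%), the CRE variant TGACGCA (5.44%, 5.21% and 3.41%), the ZFP143 core ACTACAA (5.00%, 5.60% and 3.34%) and the E2F site TTTCGCGC (1.00%, 1.06% and 0.668%). The CRE, CRE variant, AP-1 and antioxidant letters can overlap at a site. The GC, ETS, NRF1, full CRE, CRE variant, E-box, AHR, metal and E2F motifs each hold a CG.

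**Figure D2:**
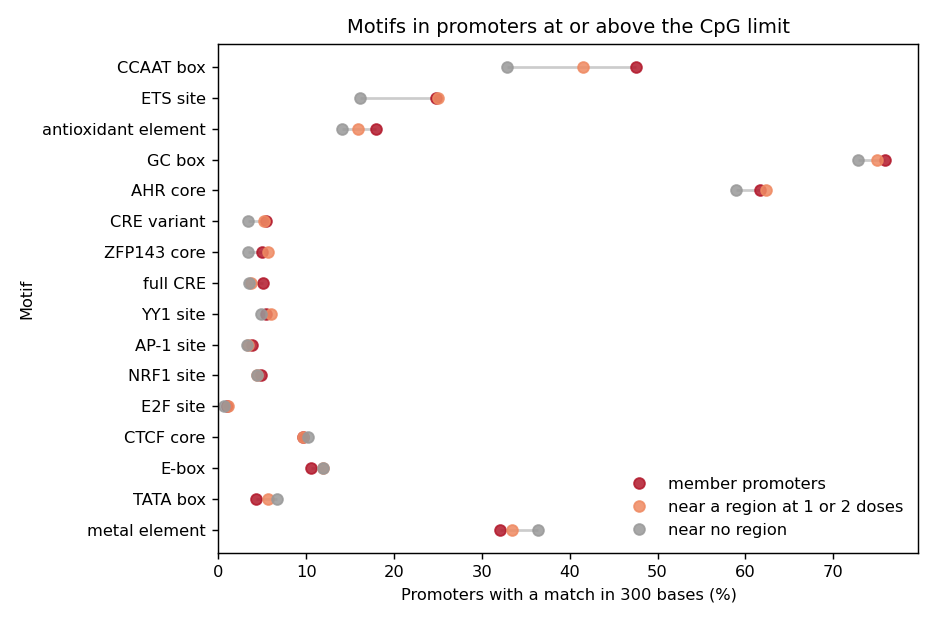
Share of CpG-rich promoters (in %) with each of 16 motifs in 300 bases, for member promoters (red), promoters near a region at 1 or 2 doses (orange) and promoters near no region (grey). The CCAAT box has the widest spread of the 3 points, with 47.5% in members, 41.5% at fewer doses and 32.8% near no region.

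Among the members themselves, those with higher scores held CCAAT more often. Sorted by mean rank percentile into 4 equal groups, the members at gene starts had a CCAAT box at the nearest start in 59.0% (54.6 to 63.2), 48.3%, 46.8% and 36.6% (32.5 to 40.9), highest group to lowest, with 496 or 497 members each. The difference between the highest and lowest group was 22.3 percentage points. It was 20.9 points without genes named Zfp, 20 points among CpG-rich promoters and 25.3 points among members under 1000 bp wide. Ranked by the score of each list alone the difference was 13.3 points for the 0.1 µM list, 18.1 for the 0.5 µM list and 19.7 for the 1 µM list. The same letters reversed but not complemented, which keep the base content, gave 3.22 points. Ranked by merged width in place of score, the widest members held CCAAT least often (42.9%, against 48.3% in the narrowest), a difference of -5.43 points. Scores and widths come from the same reads, and this pattern was noticed in these data before its values were tabulated.

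Few other motifs followed the score. The ETS site was in 21.5% of the highest group and 20.5% of the lowest, the GC box in 70.6% and 69.4%, and the CTCF core in 9.66% (7.36 to 12.6) and 10.5% (8.07 to 13.5). The metal element ran the other way, with 23.3% (19.8 to 27.3) in the highest group and 31.8% (27.8 to 36.0) in the lowest, as did the TATA box (3.22% and 6.84%) and the NRF1 site (2.62% and 5.63%). CpG-rich promoters made up 77.2%, 81.7%, 77.5% and 81.5% over 4 such groups of all members, with no steady fall.

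**Figure D3:**
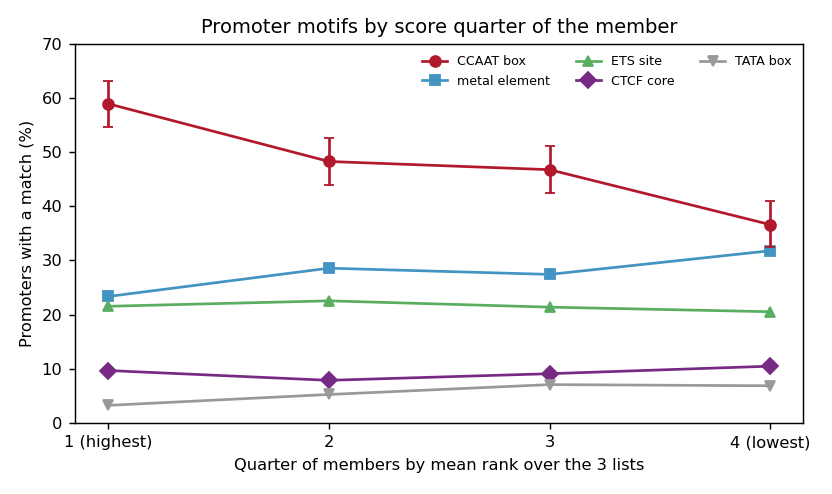
Share of members at gene starts (in %) whose promoter holds each motif, in 4 equal groups from the highest mean rank percentile by score to the lowest, with 95% Wilson intervals for the CCAAT box. The CCAAT box is in 59.0% of the highest group and 36.6% of the lowest, while the ETS site is in 21.5% and 20.5%.

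Members were wider in each list than regions listed at every dose elsewhere. Their median width was 551 bp (quartiles 385 and 804) at 0.1 µM, 450 bp (325 and 648) at 0.5 µM and 606 bp (435 and 844) at 1 µM. Inside genes the medians were 423, 356 and 453 bp, and between genes 431, 344 and 444 bp, in order of dose. The gap in score was smaller. Members had a median deposited score of 18, 14 and 24, against 17, 12 and 21 inside genes and 18, 13 and 22 between genes. The scale of the score is not stated and each list has its own, so scores are not compared between doses.

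Within each list the members mostly ranked above the middle, as did the other regions listed at every dose. They took up 2653 of the 14401 regions (18.4%) at 0.1 µM, 2670 of 11130 (24%) at 0.5 µM and 2579 of 15894 (16.2%) at 1 µM. Of the members, 568 (22.9%), 454 (18.3%) and 633 (25.6%) had a score in the top 10% of the list, and 102, 113 and 60 in the lowest 10%. The median rank percentile of members was 72.3, 67.3 and 76.9 in order of dose. For regions listed at every dose it was 69.95, 59.5 and 72.6 inside genes, and 72.3, 63.6 and 74.1 between genes. Presence in every list chose all of these regions, and its part in their high scores was not tested.

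**Figure D4:**
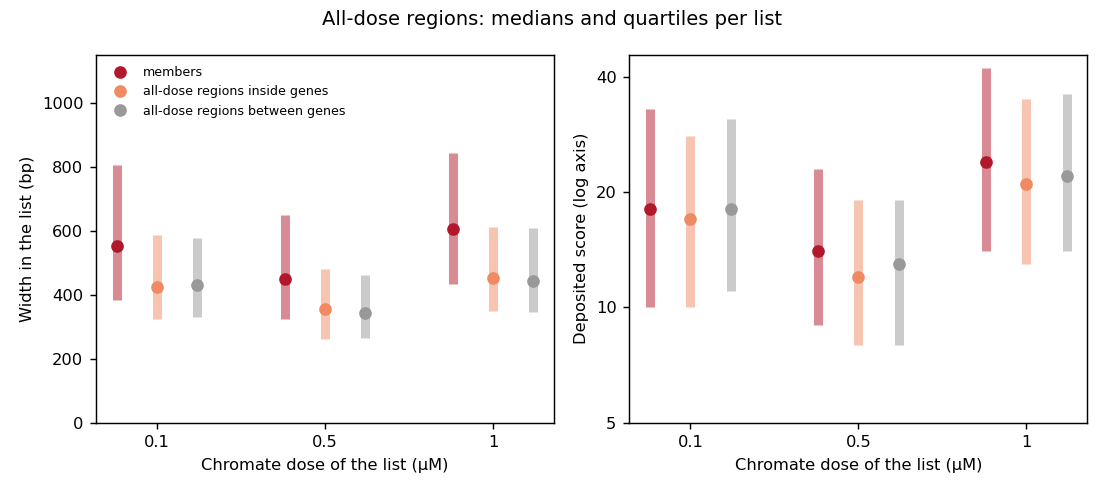
Median (point) and quartiles (bar) of region width in bp and of the deposited score (log axis) in each dose's list, for members, for regions listed at every dose inside genes and for those between genes. Members sit highest in width at each dose (551, 450 and 606 bp), while the score bars overlap almost entirely.

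The lists drew the members with similar but not equal boundaries. The bases common to every list made up a median of 56.2% of the merged member, against 57.2% inside genes and 58.4% between genes. In 2119 members (85.5%) each list had 1 region, and in 1745 (70.4%) each pair of lists overlapped by at least 50% of both regions. The member was split into several regions in 168 cases at 0.1 µM, 182 at 0.5 µM and 98 at 1 µM. The widest outline came from the 1 µM list in 1264 members, the 0.1 µM list in 905 and the 0.5 µM list in 319, ties included, and 16 members had no base common to the 3 lists.

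The member with the highest mean rank lay at the start of Ppp2r1a, whose product holds together protein phosphatase 2A (chr17:20944636-20945977, scores 281, 151 and 348 at 0.1, 0.5 and 1 µM). Gm45871, a predicted gene on chromosome 18, followed with 241, 151 and 396. Hmgcs1, the cytosolic HMG-CoA synthase of cholesterol synthesis, scored 156, 122 and 234 (chr13:119689839-119690977), and M6pr, a receptor that sorts enzymes to lysosomes, 156, 151 and 195. The mean rank percentile of the 12 best ran only from 99.9 to 99.7, so their order says little. Zinc finger genes took up Zfp120 (153, 179 and 198), Zfp960 (160, 125 and 202), Zfp386 (190, 99 and 219) and the shared promoter of Zfp654 and Cggbp1, a protein that binds CGG repeats (164, 93 and 261). The other 4 of the top 12 were Gna12, a G protein alpha subunit (140, 117 and 224), Tasp1, the protease that cleaves MLL (173, 117 and 188), Mettl4, a methyltransferase (158, 92 and 220), and Gm10130, a predicted gene (175, 100 and 185).

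None of the 5 widest members was among the 12 best ranked. Arid1b, a subunit of the BAF chromatin remodeller, had the widest at 3224 bp, drawn as 1540, 2705 and 2470 bp by the lists in order of dose and with scores of only 14, 10 and 24. Alyref2, of mRNA export, had 3113 bp (scores 33, 25 and 73), Gm20783 2921 bp, Mex3c, an RNA-binding ubiquitin ligase, 2914 bp (14, 99 and 209) and Tagln2, an actin-binding protein, 2888 bp (36, 23 and 47). The narrowest were at Srbd1 (237 bp, scores 10, 7 and 7), Vkorc1, the vitamin K epoxide reductase (256 bp, scores 8, 9 and 9), and Psmd14, a deubiquitinase of the proteasome (260 bp, scores 11, 7 and 9). Boundaries coincided best at Coq8a, of coenzyme Q synthesis, where 96.3% of the merged length was common, and at Magi3 (94.2%) and Rab5b, a GTPase of early endosomes (94.1%). No base was common at Sirt6, a deacetylase, or at Aven, an inhibitor of apoptosis.

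Scores on either side of the 1 kb limit covered a similar range. The members just inside it were at the zinc finger genes Zfp959 (995 bp, scores 75, 50 and 5), Zfp948 (994.5 bp, scores 18, 21 and 62) and Zfp52 (989 bp, scores 9, 8 and 12). Just outside lay regions near Trim69 (1002 bp, scores 5, 7 and 9), Mthfd1, of folate metabolism (1005.5 bp, scores 6, 9 and 14), and Trim45 (1007 bp, scores 103, 41 and 117).

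The members served 2802 of 20855 protein-coding genes off chromosome 15 (13.4%). These genes were long (median 26.1 kb, against 22.0 kb for the 2572 genes with a gene-end region at 1 or 2 doses only and 14.9 kb for the 15481 with none) and seldom had predicted names (3.25%, against 2.60% and 9.40%). The share of genes with a member ran from 26.6% on chromosome 1 (24.2 to 29.1), 22.3% on chromosome 18 and 20.3% on chromosome 3 to 7.08% on chromosome 9, 6.73% on the X and 5.17% on chromosome 14 (3.87 to 6.87). Of the regions listed at every dose, the part at gene ends ran from 29.6% of 622 on chromosome 3 and 31.4% of 896 on chromosome 1 to 53.5% of 284 on chromosome 4 and 62.2% of 90 on the X.

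Genes were then read by role, with 25 lists set beside the 13.4% of all genes. In 19 of them the share with a member was above that value. The interval still included 13.4% for proteasome subunits, heterogeneous nuclear ribonucleoproteins, cytosolic ribosomal proteins, and RNA polymerase II and Mediator. So did that of the NRF2 list and of the CTCF and cohesin list. Lists of genes every growing cell uses made up most of the 19, and also most of the 25. Gene-end regions at 1 or 2 doses only were at 12.3% of all genes. They were at 11 of 39 proteasome genes and 13 of 43 genes of RNA polymerase II and Mediator. Metal handling genes had them in 5 of 26 cases and nuclear pore genes in 3 of 25. A high share was thus not particular to members in every list. Of all CpG-rich promoters, 1800 of 8225 were member promoters, and the part of CpG content in the list shares was not tested. The lists were picked with earlier results of these data known, so the counts describe them and carry no test.

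Genes of cell division and genome upkeep had members often. Of 42 genes of mitosis and cell cycle control, 18 had one (42.9%, 29.1 to 57.8). Cenpf, a kinetochore protein, had the best ranked (chr1:189687857-189688587, scores 133, 89 and 197), followed by the spindle checkpoint proteins Mad2l1 (78, 61 and 114) and Bub3 (36, 28 and 41) and the kinetochore motor Cenpe (32, 12 and 38). Replication genes had 14 of 45 (31.1%), with the helicase subunits Mcm3 and Mcm5, the single-strand binding protein Rpa3 (86, 38 and 73) and Gins1 (52, 24 and 53) at the top. DNA repair genes had 14 of 42 (33.3%). Among them were the excision endonuclease Ercc5 (22, 40 and 47), the mismatch repair gene Pms2 (19, 18 and 33), which shares its promoter with Aimp2, and Ercc4 (26, 15 and 29).

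In the machinery of transcription and RNA handling, basal transcription factors had members in 11 of 40 genes (27.5%), among them Ccnh, a cyclin of the TFIIH kinase (105, 77 and 84), Gtf2b, or TFIIB (83, 38 and 140), Taf10 (56, 34 and 79) and Taf4b (48, 34 and 75). RNA polymerase II and Mediator had 7 of 43 (16.3%, 8.12 to 30.0), close to all genes, with Med19 (33, 24 and 77), Ccnc (42, 18 and 64), Cdk8 (27, 23 and 40) and Med7 (32, 15 and 38), all Mediator subunits. Splicing factors had 11 of 44 (25%), such as Srsf6 (27, 21 and 42) and Snrpb2 (22, 15 and 25), and heterogeneous nuclear ribonucleoproteins 5 of 23 (21.7%), such as Hnrnpll (22, 20 and 14). Nuclear pore genes had 10 of 25 (40%, 23.4 to 59.3). Tpr, of the nuclear basket, scored 22, 62 and 157, Nup107 40, 29 and 37, and Rae1, of mRNA export, 22, 32 and 25.

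Among translation genes, mitochondrial ribosomal proteins had 25 of 76 (32.9%, 23.4 to 44.1) and cytosolic ones 15 of 77 (19.5%, 12.2 to 29.7), with intervals that overlap, and the difference was not tested. Mrpl17 (chr7:105810590-105811560, scores 67, 55 and 112), Mrpl50 (46, 69 and 81) and Mrps9 (53, 30 and 58) were the best ranked of the mitochondrial set, and Rpl34 (52, 39 and 57), Rpl41 (29, 41 and 76) and Rps20 (42, 21 and 49) of the cytosolic set. Cytosolic ribosomal genes have many processed copies, and the treatment of reads that match several places is not given. Aminoacyl-tRNA synthetases, which load amino acids on tRNA, had 12 of 36 (33.3%), led by the mitochondrial Nars2 (117, 69 and 140), and initiation factors 10 of 41 (24.4%), led by Eif3f (78, 25 and 84) and the cap-binding Eif4e (40, 34 and 38). Proteasome subunits had 7 of 39 (17.9%, 8.98 to 32.7), with Psmd10 at 19, 14 and 19. Vesicle coat and SNARE genes had 9 of 29 (31.0%), such as Bet1 (26, 19 and 30) and Sec24b (16, 19 and 41).

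Genes that handle metals had members in 12 of 26 cases (46.2%, 28.8 to 64.5), the highest share of the lists, on few genes. Aco1, which as IRP1 senses iron, scored 56, 36 and 44, the copper pump Atp7b, which has its member in common with Alg11, 46, 24 and 43, the zinc exporter Slc30a1 35, 26 and 32, and the metallothionein Mt1 35, 15 and 26. The list also holds Mtf1, the factor that binds the metal element, as well as Slc40a1, the iron exporter. AP-1 and immediate early genes had 9 of 25 (36.0%, 20.2 to 55.5), with Atf3 (33, 42 and 46), Ier5 (31, 18 and 61) and Btg1 (29, 20 and 34) best ranked and Jun, Junb and Jund among them. Genes of NRF2 and the antioxidant response had 7 of 30 (23.3%, 11.8 to 40.9), namely Gclm, Hmox1, Mgst1, Nfe2l2, Nqo1, Sod1 and Sod2. Sod1, a superoxide dismutase, scored 22, 26 and 40, and Mgst1, a glutathione transferase, 26, 24 and 12. Of the CTCF and cohesin genes, 3 of 15 (20%, 7.05 to 45.2) had a member: Pds5b, a cohesin regulator (43, 33 and 48), Zfp143 (16, 41 and 33) and Yy1 (18, 7 and 18), both factors found at promoters.

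Zinc finger genes named Zfp, most of whose products bind DNA and many of which silence transposons, held more members than any other list. Of 357, 107 had one (30.0%, 25.5 to 34.9), and their median mean rank percentile was 75.1. Many of them lie in clusters of similar copies, so they are not independent and reads may be shared between copies. Other clustered families had almost no members: 2 of 1097 olfactory receptors (0.182%, 0.0500 to 0.662) and 1 of 353 vomeronasal receptors (0.283%) had a member, and the vomeronasal one, Vmn1r4, has its member in common with Nt5c3, a nucleotidase gene. None of 30 homeobox cluster genes (upper bound 11.4%) and none of 80 keratins and keratin-associated proteins (upper bound 4.58%) had one.

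Of 12 hepatocyte markers, 1 had a member (8.33%, 1.49 to 35.4), which the list is too short to tell from the 13.4% of all genes. It was Foxa2, a liver transcription factor (chr2:148046029-148047211, scores 32, 24 and 23). The other 11 had no listed region with its midpoint within 1 kb of an end at any dose. The nearest region listed at every dose lay 1064 bp from an end of Apoa2, an apolipoprotein, just past the limit, 5.52 kb from Fgb, 12.5 kb from Hnf4a and 237 kb from Alb. Of 22 markers of immune, endothelial, stromal, neuronal and bile duct cells, 1 had a member: Sox9 (36, 19 and 40), a bile duct and progenitor marker.

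**Figure D5:**
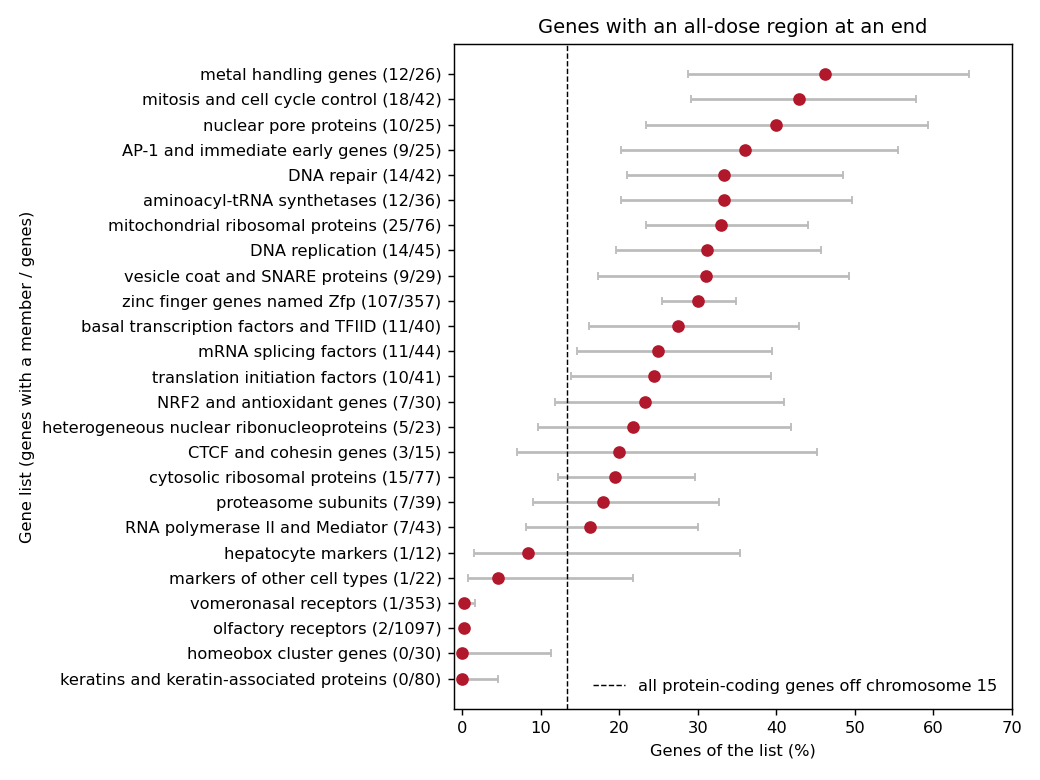
Share of the genes of each list (in %) with a member within 1 kb of an end, with 95% Wilson intervals and the count of genes beside the name. The dashed line is the 13.4% of all protein-coding genes off chromosome 15, and metal handling (46.2%), mitosis (42.9%) and nuclear pore genes (40%) lie farthest above it.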

How the data were processed

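Hepa-1c1c7 cells at 0, 0.1, 0.5 and 1 µM chromate gave 2 ATAC-seq libraries per dose. The authors deposited 3 region lists, with a whole-number score of at least 4 per region whose scale is not stated. Bowtie2, Picard, MACS2 and mm10 are named per the submitters' processing notes, without versions or roles. Read shift, duplicate removal, threshold and the use of each library are not given. The files hold no counts, so depth is unknown.

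Regions were merged on an overlap of at least 1 bp with Python 3.11.15, pandas 2.3.3 and numpy 2.4.6. Where a list had several regions in a member, the highest score and the summed width were taken. Genes came from RefSeq on GRCm38.p6, the assembly behind mm10, with 21631 protein-coding genes on chromosomes 1 to 19 and X. Strand came from the RefSeq promoter table, which held 17274 of them. Of 2802 genes with a member, 2331 had a promoter there. Motifs were searched on both strands of 300 bases. Wilson intervals (95%) used scipy 1.17.1. The merging and location steps were tested on simulated regions.

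The members and gene lists were chosen with earlier results of these data known. Named regions are the 12 best by mean rank, the 5 widest and 3 narrowest, the 3 just inside and outside 1 kb, the 5 near most genes, the 3 with the most and least common length, and up to 4 per gene list. Far-end members, shared promoters and chromosomes were named by rank or extremes after their values were seen. No test across regions was made, because a list has no replicate. A few named items are not reported here. Alternatives changed the distance, overlap, score, width, annotation and lists required.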

Additional observations from a re-analysis of the deposited data

How the results depend on the processing

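No alternative moved the counts of members and genes by over 1.5 times, except the stronger 50% of each list (1240 members, 1404 genes) and the wider 50% (1553 and 1762), which keep fewer regions by construction. The share of regions listed at every dose that lay at gene ends was 35.5% within 500 bp, 44.3% within 2.5 kb, 40.6% with any base counted, 37.4% with reciprocal overlap, 41.6% in the stronger 50%, 48.5% in the wider 50% and 33.9% with only the 0.1 and 1 µM lists required. Gene starts made up 98.6% of members within 500 bp and 95.2% within 2.5 kb, and CpG-rich promoters 79.8% within 2.5 kb. Median width at 0.1 µM was 0.536 kb within 2.5 kb, 0.625 in the stronger 50%, 0.688 in the wider 50%, 0.495 with the 0.1 and 1 µM lists and 0.526 with the 0.1 and 0.5 µM lists. At 0.5 µM it was 0.479 kb with reciprocal overlap, 0.501 in the stronger 50%, 0.549 in the wider 50%, 0.423 with the 0.5 and 1 µM lists and 0.434 with the 0.1 and 0.5 µM lists. At 1 µM it was 0.583 kb with reciprocal overlap, 0.676 in the stronger 50%, 0.739 in the wider 50%, 0.548 with the 0.5 and 1 µM lists and 0.535 with the 0.1 and 1 µM lists. The cause was not tested. Between 17 and 20 of the 25 gene lists had a share above all genes under each alternative, and 202 of 250 counts of single lists stayed within 1.5 times. The CCAAT difference was 13.3 points by the 0.1 µM score and reversed to -5.43 points by merged width. These CCAAT alternatives were chosen after seeing the data. No paired analysis was possible because both libraries of a dose carry the same list and the lists carry no replicate number. For the same reason no library could be left out. Unknown depth limits what an absent region means.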
